A study of Mus musculus with 148 samples.

Results

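The Dlk1-Meg3 control region is the stretch of mouse chromosome 12 between the genes Dlk1 and Meg3. DNA modification was read there by bisulfite sequencing of DNA captured with padlock probes, which are single DNA strands with an annealing arm at each end that close into a circle once the stretch between the arms has been copied. The members described here are all CpGs, each strand counted separately, of a 60-kb window between both genes in the GRCm38 build. Of 164 CpG cytosines listed in the window, 81 had more than 30 reads in at least 3 samples, 45 on the plus and 36 on the minus strand. The whole table lists 47909 cytosines, of which 1627 CpGs passed the same coverage rule. The 81 cytosines belong to 67 CpG sites, of which 14 were read on both strands, and 63 of the 81 had more than 30 reads in every sample.

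All samples were DNA of enterocytes, the absorptive cells of the gut lining, isolated by chelation from the small intestine of C57BL/6MCrl mice (C57BL/6NCrl in the protocol). The intestine was cut into 9 equal segments, from segment 1 at the stomach end to segment 9 at the colon end. P60 mice were adults at postnatal day 60 that drank water (71 samples, 8 per segment and 7 in segment 6), and P6 mice were infants at postnatal day 6 (10 samples, 3, 3 and 4 in segments 1, 3 and 7). P90 mice were given milk in place of water from postnatal day 30 for 60 days, either with lactose (LAC+, with added sucrose, 35 samples) or lactose-free (lac-, 32 samples), and 5 segments of these were read (1, 3, 4, 7 and 8). No group drank water to day 90, so age and milk cannot be told apart between P60 and lac-. The labels do not tie the segments of 1 mouse together, nor say that all samples of a segment are separate mice. Samples of different segments can thus share a mouse, and the p-values below treat samples as separate. They are then too small for tests over all 71 P60 samples and for tests of the diets over all 5 segments. For comparisons of segments they leave any pairing out and can be off in either direction. The files hold no expression values, so the cell type was not checked against markers, and they do not separate the parental alleles.

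In an imprinted region the chromosome from one parent is methylated and the chromosome from the other parent is not. The control region between Dlk1 and Meg3 is methylated on the paternal chromosome, where the protein-coding gene Dlk1, a membrane protein related to the Notch ligands, is expressed. On the maternal chromosome it is unmethylated, and the non-coding RNA Meg3 is expressed in place of Dlk1. Whether the CpGs read here follow this pattern was not tested. Bisulfite sequencing does not separate methylated from hydroxymethylated cytosine, so both count as DNA modification.

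Read depth was high in most of the region. The median number of reads per CpG of a sample ranged from 543 to 2072 in P60, from 575 to 1719 in P6, from 794 to 3461 in LAC+ and from 600 to 3497 in lac-. The CpH modification of a sample, a measure of unconverted cytosines, lay between 0.337% and 0.553%. It was lowest in P60, with a mean of 0.380% (highest 0.425%). The mean was 0.472% in P6 (lowest 0.442%), 0.481% in LAC+ and 0.485% in lac-. The P6 samples were all sequenced on lane 8, which held no other sample. The names of 29 LAC+ and 12 lac- files, and of 0 P60 or P6 files, carry the word merged, whose meaning the labels do not give.

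The covered CpGs span 4596 bp, chr12:109525990-109530585. They lie 15006 to 10411 bp upstream of the start of Meg3 (chr12:109540996-109571729, plus strand) and begin 62654 bp past the end of Dlk1 (chr12:109452485-109463336, plus strand). The RefSeq annotation places all of them inside Gm34081, a non-coding RNA gene on the minus strand (chr12:109493125-109540149), with 14 of the 164 listed cytosines in its exons and 150 in its introns. The CpGs fall into 3 clusters, runs in which each CpG lies within 500 bp of the next. Cluster 1 is chr12:109525990-109526921, cluster 2 is chr12:109527791-109528136 and cluster 3 is chr12:109528845-109530585. The list of probes holds 24 for this region, 13 on the plus and 11 on the minus strand, which copy 130 to 140 bases each, and 20 of them gave a covered CpG.

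The stretches copied by 5 probes are shown here. The level of modification rises along cluster 1 from the first of them through the second to the third. The fourth holds a CpG of cluster 2 that differed between P60 segments. That CpG also had the lowest p of the region between P6 and P60 in segment 7, but did not pass the threshold there. The last is in cluster 3. All 5 stretches are reference sequence of GRCm38 from RefSeq, plus strand, with CpGs in capitals.
Probe 1, upstream edge of cluster 1, chr12:109525980-109526119: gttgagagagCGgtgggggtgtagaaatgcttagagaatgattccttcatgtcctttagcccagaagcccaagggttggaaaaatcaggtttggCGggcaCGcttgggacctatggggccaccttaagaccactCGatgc
Probe 2, next in cluster 1, chr12:109526249-109526387: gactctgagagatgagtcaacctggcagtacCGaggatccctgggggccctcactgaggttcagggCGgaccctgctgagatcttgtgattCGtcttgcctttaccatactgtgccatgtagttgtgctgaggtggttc
Probe 7, downstream edge of cluster 1, chr12:109526787-109526922: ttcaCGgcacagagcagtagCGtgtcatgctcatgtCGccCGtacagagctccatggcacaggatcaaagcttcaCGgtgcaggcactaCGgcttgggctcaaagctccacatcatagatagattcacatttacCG
Probe 10, cluster 2, chr12:109527997-109528135: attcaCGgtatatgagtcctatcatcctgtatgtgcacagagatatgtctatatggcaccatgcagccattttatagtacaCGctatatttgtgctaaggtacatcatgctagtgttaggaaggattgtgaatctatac
Probe 15, cluster 3, chr12:109529397-109529532: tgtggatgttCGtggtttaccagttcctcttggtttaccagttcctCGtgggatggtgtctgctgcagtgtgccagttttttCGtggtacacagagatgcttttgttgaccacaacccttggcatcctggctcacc

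Most CpGs of the region were highly modified in P60. Of the 73 covered CpGs that lie in the copied part of a probe, 61 had a P60 mean over 70%, and 22 of these were over 90%. Only 10 of the 73 lay between 30 and 70%, and 2 were under 30%. The median of the 73 means was 84.9%. Most of these levels lie above what methylation of the paternal chromosome alone would give, were both chromosomes read equally. The parental chromosomes were not read apart. The low CpGs sat together at the upstream edge of cluster 1.

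Along cluster 1 the probes nearest that edge were the lowest. The 4 CpGs of probe 1 averaged 35.2% ± 9.43 (SD, n = 71), the 3 of probe 2 52.1% ± 4.16 and the 3 of probe 3 65.5% ± 5.37. The next probes gave 81.3% ± 4.09 (probe 4), 88.3% ± 3.04 (probe 5), 85.01% ± 5.13 (probe 6, n = 65) and, at the downstream edge, 94.1% ± 0.91 (probe 7). In cluster 2 the 3 probes averaged 93.2% ± 3.05, 79.5% ± 5.10 and 83.3% ± 5.77. In cluster 3 the probes with reads in all P60 samples ranged from 78.1% ± 4.10 (probe 16) to 91.2% ± 1.03 (probe 18).

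The CpG 109526876+ (chr12 position and strand of its cytosine), on probe 7, had the highest P60 mean of the region, 96.2%. The CpG 109530389- had the widest spread over P60 samples, 61.96% ± 14.9 (SD), but only 30 of the 71 samples had more than 30 reads there. For all 81 CpGs the SD over P60 samples exceeded the SD that counting reads would give, by 1.34 to 9.35 times with a median of 2.30. The counting SD covers counting error only, reads copied by PCR are not independent molecules, and the samples come from 9 segments.

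**Figure D1:**
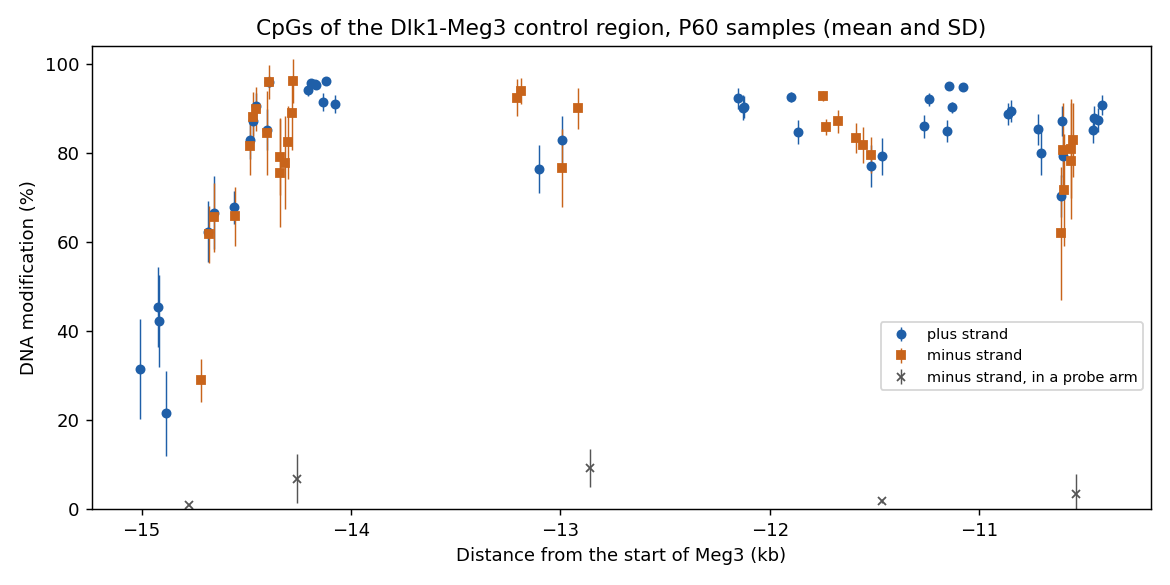
The P60 mean of each covered CpG (y axis, DNA modification in percent; bars, SD over up to 71 samples) is plotted against its distance from the start of Meg3 (x axis, kb). Circles and squares show both strands. Within cluster 1, plus-strand probes go from 35.2% (probe 1) to 94.1% (probe 7) and minus-strand probes from 52.1% (probe 2) to 85.01% (probe 6). Crosses show the 5 CpGs of the region read in a probe arm, all under 10%.

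Both strands of a CpG are captured by different probes, so they are separate readings of the same site. Of the 13 CpG sites copied on both strands, 9 differed by at most 5 percentage points on average over the samples, and the median absolute difference was 1.16 points. The closest pair was 109526605+ and its partner, with 95.8% on the plus and 95.7% on the minus strand. In cluster 1 the 8 sites read on both strands differed by at most 1.44 points. The other 4 were 109528002+, which was 7.64 points above its minus strand, and 3 CpGs of probe 22 with differences of 12.1 to 13.1 points (86 samples).

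A further 5 CpGs, all on the minus strand, were read only in the arm of a probe, and all were low. The lowest P60 mean of the region belonged to 109526224-, with 0.851% ± 0.222 (SD, n = 71). The others were 109526737- with 6.86%, 109528136- with 9.29%, 109529533- with 1.93% and 109530458- with 3.52%. The list of probes gives each of these arms with the C-to-T change of bisulfite conversion at this cytosine. At 109529533- the genome (minus strand, chr12:109529533-109529559) and the arm are shown here, with the base at the cytosine of the CpG in capitals.
Genome at 109529533-: ttggtcagaaaagtgtttctagacaaC
Arm of probe 15: ttggttagaaaagtgtttttagataaT
The plus strand of the same CpG, 109529532+, lies in the copied part of probe 16 and read 79.2% in P60, the largest difference between strands in the region (74.7 points over all samples). Of the 5 arm CpGs, 3 had more than 30 reads in every sample and are part of the region mean, and all 5 are left out of the cluster means. A further 3 covered CpGs (109529252-, 109529265- and 109529324-) lie in no probe of the list.

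Averaged over the 63 CpGs with reads in every sample, the region lay at 76.9% ± 1.41 in P60 (lowest 73.9%, median 77.1%, highest 79.9%, n = 71). Without its arm CpGs it lay at 80.6%. The most like regions with probes are 3 other paternally methylated imprinted regions: H19, next to the non-coding RNA of that name, Rasgrf1, next to a guanine nucleotide exchange factor gene, and Zdbf2, next to a zinc finger gene. H19 lay at 38.4% ± 1.34 (55 CpGs), Zdbf2 at 38.6% ± 1.13 (161 CpGs) and Rasgrf1 at 54.99% ± 4.94 (a single CpG). The Dlk1-Meg3 region was higher than each of them in 71 of 71 samples, by 38.5 points for H19, 38.4 for Zdbf2 and 21.96 for Rasgrf1. The adjusted p was 1e-05 in each case, the smallest that 100000 permutations can give (sign-flip permutation test over samples, Benjamini-Hochberg over 4 targets). The Lct-Mcm6 locus, which is not imprinted and was the subject of the study, lay at 79.5% ± 1.23 (590 CpGs). The region minus this locus was -2.56 points, and the region exceeded it in 13 of 71 samples (adjusted p = 1e-05, the smallest possible, same permutation test). Arm CpGs were low in the other targets as well, with P60 means of 1.45% (3 CpGs, H19), 0.896% (2, Zdbf2) and 3.88% (16, Lct-Mcm6). Without arm CpGs on either side the region minus the Lct-Mcm6 locus was -1.02 points, and the region exceeded it in 23 of 71 samples (adjusted p = 0.00043, same test) and remained higher than the imprinted targets in 71 of 71.

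**Figure D2:**
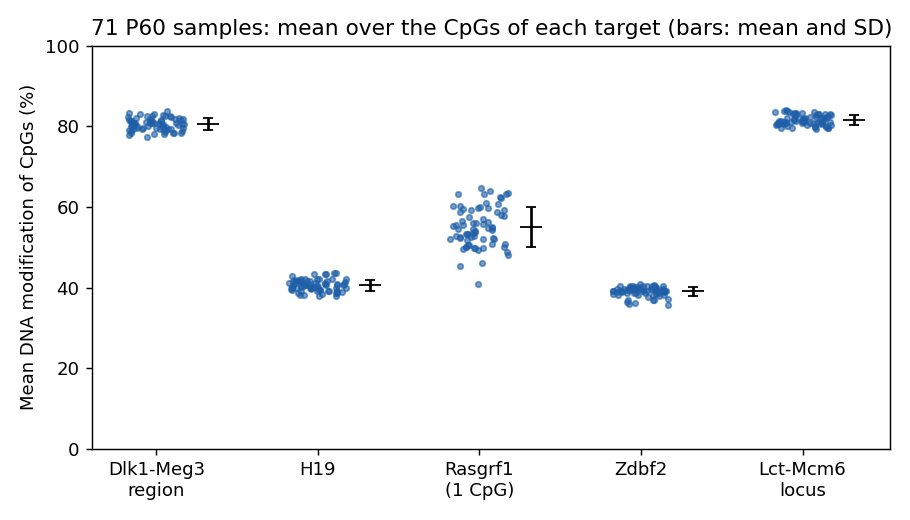
Each point is 1 of 71 P60 samples (y axis, mean DNA modification in percent over the CpGs of a target without arm CpGs; horizontal scatter has no meaning), with the mean and SD beside it. The Dlk1-Meg3 region, at 80.6%, lies beside the Lct-Mcm6 locus and above the other imprinted targets.

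Across P60 samples, the region moved against the mean over the CpGs of the other imprinted regions. Of these CpGs, 161 are of Zdbf2, 55 of H19 and 1 of Rasgrf1. The region mean and the mean over H19, Rasgrf1 and Zdbf2 had Pearson's r = -0.589 and Spearman's rho = -0.523 (n = 71, permutation p = 1e-05 for both, the smallest 100000 permutations can give, adjusted p = 4e-05 over 4 relations). Without the 2 samples farthest from the median r was -0.551, and within lanes 5, 6 and 7 it was -0.596, -0.689 and -0.412. After each segment's mean was taken off, r was -0.245, so most of the relation lay between segments. No relation of the region mean was detectable to CpH modification (r = 0.022, permutation p = 0.855, adjusted p = 0.855; rho = 0.036, permutation p = 0.760, adjusted p = 0.760) or to the number of reads (r = -0.052, permutation p = 0.670, adjusted p = 0.855; rho = -0.115, permutation p = 0.338, adjusted p = 0.451). Clusters 1 and 3 had r = -0.183 (permutation p = 0.127, adjusted p = 0.255) and rho = -0.161 (permutation p = 0.179, adjusted p = 0.359), and r was -0.658 within segments and -0.042, 0.171 and -0.539 within lanes 5, 6 and 7. Without 2 samples the r of these 3 relations was 0.098, 0.015 and -0.164.

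The study read 9 segments of P60 mice to ask whether modification follows the position along the small intestine. The region mean fell from segment 1 to segment 5 and rose again in part. In segment 1 it was 79.5% ± 0.57 (lowest 78.7%, median 79.5%, highest 80.4%, n = 8), in segment 5 75.5% ± 0.51 (lowest 74.97%, median 75.4%, highest 76.3%, n = 8) and in segment 9 77.5% ± 0.81 (lowest 76.03%, median 77.6%, highest 78.3%, n = 8). The samples of segment 1 did not overlap with those of segment 5 or of segment 9. Over 9 segments the F statistic of the region mean was 22.6 (65 CpGs, adjusted p = 0.00019, permutation test with 100000 resamples, Benjamini-Hochberg over 19 region tests). Segment 9 minus segment 1 was -2.05 points (adjusted p = 0.00148, two-sided exact permutation test over all splits, n = 8 each). With samples paired by the replicate number of the labels, or by the number in the file names, this call was lost (adjusted p = 0.0742 and 0.0572, exact sign-flip permutation test). By replicate number segment 9 was the lower in each of the 8 pairs. The raw p of that test was thus the smallest that 8 pairs allow, and the lost call does not show a weaker difference. Segment 9 minus segment 3 was -1.02 points (adjusted p = 0.0418, same exact test), a difference that missed the threshold under 6 alternatives, among them without arm CpGs (adjusted p = 0.0557) and within sequencing lanes (adjusted p = 0.0692).

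The segments differed in clusters 1 and 2, and cluster 3 did not pass the threshold. Cluster 1 went from 76.3% ± 1.46 in segment 1 to 71.7% ± 1.55 in segment 7 and 74.7% ± 0.92 in segment 9 (F = 9.46, adjusted p = 0.000285 over 57 cluster tests, permutation test). Cluster 2 moved most, from 90.0% ± 2.01 in segment 1 (lowest 86.1%, median 90.4%, highest 92.98%, n = 8) to 78.9% ± 2.90 in segment 5 (lowest 73.2%, median 79.3%, highest 82.1%, n = 8) and back to 86.8% ± 1.40 in segment 9 (F = 16.3, adjusted p = 0.000285, permutation test). The samples of segments 1 and 5 did not overlap in cluster 2. Cluster 3 kept between 84.99% and 87.7% in all segments (F = 2.41, adjusted p = 0.0826, permutation test). The difference of this pattern between clusters was not itself tested.

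Single CpGs were tested on the counts of reads with a quasi-binomial F test and Bonferroni correction over all 22270 cytosines tested in the table. With an adjusted p under 0.01, 19 of 74 CpGs of the region differed between segments, against 14.5% of all CpGs tested. Counted with arm CpGs, they lay in cluster 1 (16 of 36 tested), cluster 2 (2 of 7) and cluster 3 (1 of 31), and none was an arm CpG. The highest mean was in segment 1 for 14 of the 19, and the lowest was in segment 5 for 10 and in segment 7 for 6. Between its highest and lowest segment a called CpG spanned 3.10 to 22.3 points, with a median of 10.8. Of the 19, 17 were lower in segment 9 than in segment 1.

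The strongest segment difference of the region was at 109526341-, a CpG of probe 2 that lies 14655 bp upstream of the Meg3 start (F = 89.7, Bonferroni-adjusted p = 8.58e-27). It fell from 77.9% ± 1.77 in segment 1 (lowest 75.03%, median 78.01%, highest 79.9%) through 72.6% in segment 3 to 58.9% ± 2.79 in segment 5, and it was 60.1% ± 2.41 in segment 9 (lowest 56.7%, median 60.7%, highest 62.98%). The samples of segments 1 and 9 did not overlap. Its plus strand, 109526340+, read by probe 3, went from 80.1% to 60.1% (F = 42.1), and so both strands gave the same fall.

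The neighbouring CpG behaved alike and the next one did not, which was seen after the values were examined. At 109526315+ the level went from 72.7% in segment 1 to 57.6% in segment 9, and at its minus strand 109526316- from 72.9% to 58.5%. The third CpG copied by probe 2, 109526281-, rose instead, from 25.7% ± 2.35 (lowest 23.5%, median 25.04%, highest 29.8%) in segment 1 to 36.5% ± 2.59 (lowest 32.5%, median 36.3%, highest 40.8%) in segment 9 (F = 14.9, Bonferroni-adjusted p = 1.43e-07). The samples of both segments did not overlap. Thus CpGs of the same copied stretch, printed above as probe 2, moved in opposite directions. The other called CpG that rose was 109526114+, on probe 1 at the upstream edge, with 13.8% ± 5.86 in segment 1 and 34.1% ± 4.79 in segment 9 (F = 12.9, Bonferroni-adjusted p = 2.17e-06).

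In cluster 2 both strands of 1 CpG were called. At 109528003- the mean was 86.4% ± 4.86 in segment 1, 66.6% ± 8.19 in segment 5 and 80.3% ± 3.58 in segment 9 (F = 8.58, Bonferroni-adjusted p = 0.00194). At 109528002+ it was 89.3%, 75.7% and 81.5% in the same segments (F = 8.44, Bonferroni-adjusted p = 0.00248). These CpGs were lowest in the middle of the intestine, unlike 109526341- of probe 2, which was about as low in segment 9 as in segment 5. The only called CpG of cluster 3 was 109529841+, with 87.9% in segment 1, 82.8% in segment 5 and 83.3% in segment 9 (F = 15.9, Bonferroni-adjusted p = 4.04e-08).

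**Figure D3:**
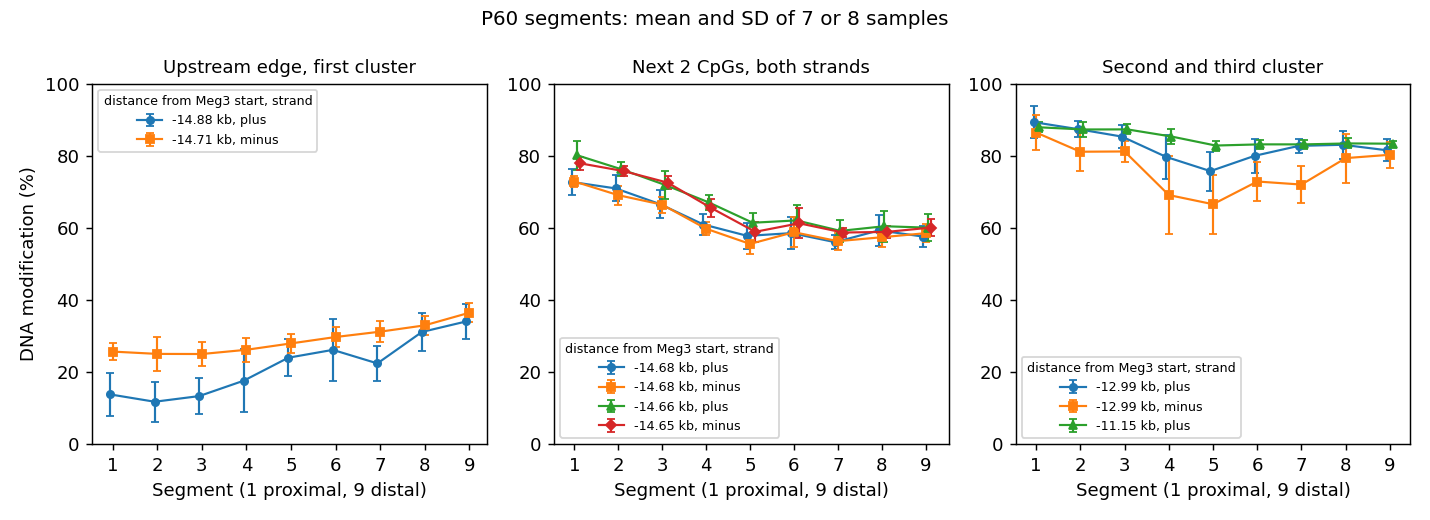
Mean and SD (y axis, DNA modification in percent) of 9 CpGs over segments 1 to 9 of P60 mice (x axis), with 7 or 8 samples per segment; CpGs are named by distance from the Meg3 start and strand. On the left, 109526114+ and 109526281- rise; in the middle, both strands of the next 2 CpGs fall from over 72% in segment 1 to 57.6% to 60.1% in segment 9; on the right, both strands of the cluster 2 CpG dip at segment 5 and the cluster 3 CpG steps down by 5.06 points.

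P6 and P60 were compared in segments 1, 3 and 7, the question being how the infant intestine differs from the adult. Cluster 2 was the stretch that differed most. In segment 1 the 3 P6 samples had cluster 2 means of 77.4%, 71.0% and 76.1%, against 86.1% to 92.98% (median 90.4%, n = 8) in P60. In segment 3 they had 78.8%, 77.9% and 73.2%, against 85.7% to 89.2% (median 87.6%, n = 8), and in segment 7 73.0%, 78.1%, 70.6% and 77.9%, against 82.8% to 86.1% (median 84.4%, n = 8). In all 3 segments each P6 sample lay below each P60 sample.

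The cluster 2 difference, P6 minus P60, was -15.2, -11.1 and -9.50 points in segments 1, 3 and 7. The adjusted p was 0.0317, 0.0317 and 0.0288 (two-sided exact permutation test, Benjamini-Hochberg over 57 cluster tests), the raw p being the smallest the numbers of samples allow. The 6 CpGs behind these means had median depths of at least 168.5 reads in P6 and 123.5 to 164 in P60. Leaving out 1 P6 sample at a time gave -13.3 to -16.5, -9.41 to -12.2 and -8.06 to -10.6 points, with an exact p of 0.0222, 0.0222 and 0.00606, again the smallest possible. All P6 samples were on a lane without P60 samples, so age and lane cannot be told apart. The mean over H19, Rasgrf1 and Zdbf2 was also lower in P6 (32.8% ± 0.40 against 37.1% ± 0.90 in segment 1, 36.2% against 38.6% in segment 3, 37.8% against 39.2% in segment 7). In segment 7 Zdbf2 (37.1% against 39.4%) and Rasgrf1 (55.96% against 57.3%) were lower in P6, and H19 was not (39.8% ± 5.37 against 38.4% ± 1.33). After this mean, over CpGs read in every sample of the series, was subtracted from each sample, the cluster 2 differences were -10.9, -8.68 and -8.14 points.

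**Figure D4:**
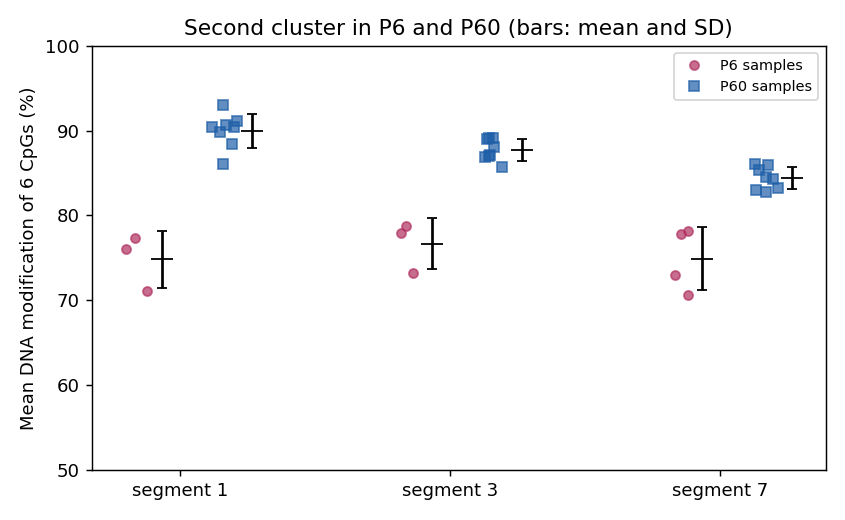
Mean DNA modification of the 6 CpGs of cluster 2 (y axis, percent, from 50 to 100) in each P6 sample (circles) and each P60 sample (squares) of segments 1, 3 and 7, with mean and SD at the right of each group. All 10 P6 samples, at 70.6% to 78.8%, lie below the P60 samples of their segment, the lowest of which is at 82.8%.

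The other clusters differed less with age. Cluster 1 differed by -4.74, -2.96 and -1.38 points in segments 1, 3 and 7 (adjusted p = 0.0864, 0.387 and 0.714, exact permutation test), and cluster 3 by -0.317, 0.174 and -1.27 points (adjusted p = 0.842, 0.907 and 0.222, same test). The region mean of P6 was 76.7%, 75.3% and 75.9% in segment 1, against 78.7% to 80.4% (median 79.5%, n = 8) in P60, without overlap. The difference of -3.55 points passed the threshold (adjusted p = 0.0288, exact permutation test over 165 splits). In segment 3 the P6 samples had 78.2%, 75.7% and 74.8%, a difference of -2.25 points (adjusted p = 0.0576, exact test), and in segment 7 75.00%, 78.5%, 70.9% and 73.7%, a difference of -1.90 points (adjusted p = 0.168, exact test). With the mean over the other imprinted regions subtracted, here over all of their CpGs read in the samples compared and so over more CpGs than for cluster 2, the region differed by 0.401, 0.091 and -0.780 points in segments 1, 3 and 7.

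Of single CpGs, 1 of 74 passed in segment 1, against 1.21% of all CpGs. It was 109526862+ of probe 7, at 86.9%, 86.5% and 86.1% in the P6 samples and 92.3% to 95.1% (median 94.3%) in P60 (Bonferroni-adjusted p = 0.00511). The groups did not overlap. The call was lost without P6 replicate 1, without P6 replicate 2 or without P60 replicate 4, and limma on log2 odds called 0 CpGs of the region. In segment 3 0 of 74 were called with the F test (1.14% of all CpGs; 33 of the 74 with an unadjusted p under 0.05; 0 by limma), and the lowest p was again at 109526862+, with 89.2%, 87.4% and 87.3% in P6 and a P60 median of 92.1%. In segment 7 the F test called 0 of 81 (1.98% of all CpGs) and limma 0, and 19 had an unadjusted p under 0.05 (F test). The share of all CpGs at that unadjusted threshold is not given here for segment 3 or 7. In segment 7 the lowest p was at 109528003- of cluster 2, with 52.6%, 57.1%, 44.6% and 56.97% in P6 and 63.4% to 80.5% (median 71.0%) in P60. The same CpG read 71.0%, 60.6% and 71.1% in P6 segment 1 and 64.9%, 68.3% and 50.9% in P6 segment 3, against P60 medians of 85.9% and 81.4%. Among the P6 samples themselves the region mean did not differ detectably between segments (F = 0.551, adjusted p = 0.713, permutation test).

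LAC+ and lac- mice were compared within 5 segments to ask whether lactose in the diet goes with a change in modification. Both ends of the region differed in opposite directions between the diets. Cluster 3 was lower in LAC+ than in lac- in each segment, with differences of -3.42, -7.32, -1.68, -3.91 and -6.19 points in segments 1, 3, 4, 7 and 8. Cluster 1 was higher in LAC+ in each, by 1.07, 3.67, 0.54, 2.01 and 2.38 points. Both differences went with the merged mark of the files, as the values below show.

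In segment 8 cluster 3 ranged from 73.8% to 85.7% (median 79.2%, n = 7) in LAC+ and from 82.02% to 88.5% (median 84.6%, n = 7) in lac-. This was the only single segment in which a cluster passed the threshold between the diets (adjusted p = 0.0317, two-sided exact permutation test). Within the merged mark the cluster 3 difference was -2.06 points (exact permutation p = 0.265, adjusted p = 0.802), and within sequencing lanes -3.08 points (exact permutation p = 0.50, adjusted p = 1). Only 1 lac- file of this segment carries the mark, and only 1 shares a lane with LAC+ files. The smallest p these tests can give, also for the region mean, was 0.0204 within the mark and 0.125 within lanes. The lane test could thus not pass at any difference. The region mean passed in the same segment, with 74.95% ± 1.05 in LAC+ and 76.96% ± 1.71 in lac-, a difference of -2.01 points (adjusted p = 0.0418, same exact test), which was -0.264 points within the mark (exact p = 0.653) and 0.021 points within lanes (exact p = 1). In segments 1, 3, 4 and 7 the region mean differed by -1.06, -2.35, -0.517 and -1.08 points, and the adjusted p was 0.105, 0.139, 0.575 and 0.161 (same exact test). The groups overlapped in all 5 segments.

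With the 5 segments in 1 test and samples permuted within them, the difference between LAC+ and lac- was -4.48 points in cluster 3 (adjusted p = 0.00024, permutation test over 67 samples), 2.29 points in cluster 1 (adjusted p = 0.00259), -2.34 points in cluster 2 (adjusted p = 0.00382) and -1.34 points for the region (adjusted p = 0.0004). A mouse can enter this test with several of its segments, so these p-values can be too small. When the segments that share a number in the file names were first averaged, 7 values per diet, the differences were -4.51, 2.30, -2.37 and -1.35 points (exact permutation p = 0.0105, 0.0216, 0.00874 and 0.0117). The mean over the other imprinted regions differed by -0.579 points in that comparison (exact permutation p = 0.0251).

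The samples also differed by the merged mark within 1 diet. Among lac- samples, cluster 3 lay at 78.9% ± 3.42 in the 12 marked files (74.8% to 83.96%) and at 86.7% ± 1.88 in the 20 others (83.3% to 90.3%). By lane it lay at 79.7% ± 4.25 on lanes 1 to 3 (n = 13) and at 86.6% ± 1.87 on lanes 5 to 7 (n = 19). Of the 12 marked files, 4 were of segment 1 and 5 of segment 4. The mark thus goes largely with lane and in part with segment, and these values do not separate them. Cluster 1 lay at 78.9% ± 2.92 in the marked and 74.2% ± 2.42 in the other files. The 29 marked LAC+ files, at 78.5% ± 2.53 in cluster 3 and 78.9% ± 2.25 in cluster 1, were close to the marked lac- files. The other imprinted regions did not show this, with 38.02% ± 0.78 in marked and 38.3% ± 1.09 in other lac- files. Marked lac- files held more cytosine calls in all, from 111375539 to 200558535, against 38564889 to 130643538 in the others.

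Along the region the marked lac- files were higher at the upstream edge and lower in cluster 3. Probe 1 read 51.2% ± 9.61 in marked and 36.7% ± 12.7 in other files, probe 2 62.5% and 52.6%, and probe 3 72.7% and 65.2%. At probe 7 both were near 94%, with 93.6% and 93.9%. Probe 15 read 69.2% ± 5.47 and 81.3% ± 3.05, probe 16 68.6% and 80.3%, and probe 20 79.7% and 89.7%. The CpGs that were low in P60 were thus higher, and those of cluster 3 lower, in marked files.

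Within segments and within the mark, LAC+ and lac- differed by -1.66 points in cluster 3 (adjusted p = 0.307, permutation test, 63 samples), by 0.826 points in cluster 1 (adjusted p = 0.307), by -1.04 points in cluster 2 (adjusted p = 0.307) and by -0.501 points for the region (adjusted p = 0.307). Within segments and sequencing lanes the differences were -0.281, 0.421, 0.573 and 0.098 points (adjusted p = 0.80 for each, permutation test, 46 samples). A LAC+ sample without the mark, replicate 7 of segment 3, stood apart with 86.5% in cluster 1 and 63.8% in cluster 3, and it was the only sample on lane 2.

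**Figure D5:**
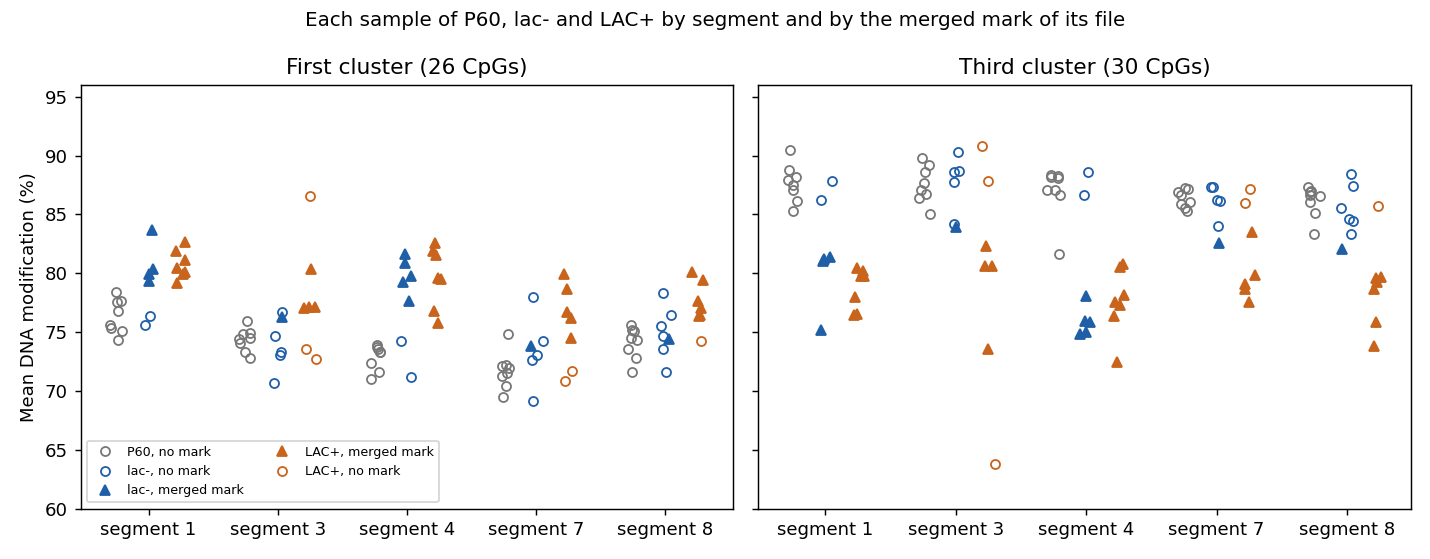
Mean DNA modification (y axis, percent, from 60 upward) of cluster 1 (left) and cluster 3 (right) in each P60, lac- and LAC+ sample, by segment (x axis); triangles are files that carry the merged mark and circles those that do not. In cluster 3 the marked files of a segment lie below the unmarked files of the same diet, except that 1 unmarked LAC+ sample of segment 3, at 63.8%, is the lowest; in cluster 1 marked and unmarked files overlap in lac- segments 3, 7 and 8, and the same LAC+ sample, at 86.5%, is the highest of its segment.

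No single CpG of the region was called between the diets in any segment. The quasi-binomial F test called 0 of 81, 74, 81, 74 and 74 CpGs in segments 1, 3, 4, 7 and 8 (0% of all CpGs in each), and limma called 0 in each. An unadjusted p under 0.05 was reached by 4, 5, 4, 17 and 32 of them (same F test). The share of all CpGs at that unadjusted threshold is not given here. The lowest p of segment 8 was at 109530388+ of cluster 3, with 53.9% to 69.4% (median 59.5%, n = 7) in LAC+ and 65.8% to 74.6% (median 68.4%, n = 7) in lac-, which overlap. In segment 4 it was at 109526658-, with 58.1% to 75.3% (median 71.3%) in LAC+ and 75.3% to 95.00% (median 82.5%) in lac-, which touch but do not overlap. In segments 3 and 7 the lowest p was in cluster 3, at 109530276+ (77.3% ± 8.19 in LAC+ and 85.5% ± 4.88 in lac-) and at 109529132+ (78.03% ± 3.78 and 84.9% ± 2.54). In segment 1 it was at 109526827+ of probe 7, with 94.1% ± 0.36 in LAC+ and 94.5% ± 0.24 in lac-. All 5 were lower in LAC+ and had a Bonferroni-adjusted p of 1.

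P60 and lac- were compared in the 5 segments that both groups share. Age and milk differ together between them, and lane differs in part. Of the lac- files, 19 were on lanes 5 to 7, which also held P60 files, and 13 were on lanes 1 to 3, which held no P60 file. The region mean of lac- differed from that of P60 by -1.61 points in segment 1 (76.2% to 79.5%, median 77.7%, n = 6, against 78.7% to 80.4%, median 79.5%, n = 8; adjusted p = 0.0288, two-sided exact permutation test). It differed by -0.201, -1.57, 0.345 and -0.085 points in segments 3, 4, 7 and 8 (adjusted p = 0.713, 0.107, 0.713 and 0.908, same exact test). Cluster 3 of lac- differed by -5.52 points in segment 1 and -7.65 points in segment 4 (adjusted p = 0.0317 and 0.0416, same exact test), and cluster 1 was higher by 4.94 points in segment 4 (adjusted p = 0.0317). Marked files made up 4 of 6 lac- samples of segment 1 and 5 of 7 of segment 4. Without them the differences were -0.644 and 0.684 points in cluster 3, -0.116 points in cluster 1 of segment 4, and -0.347 and 0.700 points for the region in segments 1 and 4 (exact p = 0.578, 0.644, 0.956, 0.511 and 0.422).

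Between P60 and lac- the quasi-binomial F test called 0 of 74, 74, 81, 74 and 74 single CpGs in segments 1, 3, 4, 7 and 8. Of all CpGs it called 0%, 0%, 0.0648%, 0% and 0%, and limma called 0 of the region in each segment. An unadjusted p under 0.05 was reached by 38, 5, 52, 13 and 11 CpGs of the region (same F test). The share of all CpGs at that unadjusted threshold is not given here. The lowest p was at 109529917+ in segments 1 (95.4% ± 0.55 in P60, 93.9% ± 0.37 in lac-) and 4 (94.9% ± 0.63 and 93.3% ± 0.43). At this CpG of probe 18 the groups did not overlap in segment 4 and overlapped slightly in segment 1. The lowest p was at 109526823+ in segment 3 (95.9% and 95.01%), at 109526827+ in segment 7 (95.1% and 94.00%) and at 109526341- in segment 8 (58.9% ± 1.73 and 62.2% ± 2.14). The last is the CpG with the strongest segment difference in P60.

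Segments were also compared within each diet. In lac- the region mean was 77.4%, 77.8%, 74.9%, 76.4% and 76.96% in segments 1, 3, 4, 7 and 8 (F = 3.80, adjusted p = 0.0418, permutation test). Cluster 3 of lac- was lowest in segment 4, 79.3% ± 5.82, and segment 1, 82.1% ± 4.47, the segments with 5 and 4 marked files, and 87.2% ± 2.59 in segment 3, with 1 (F = 4.601, adjusted p = 0.0317, permutation test). Clusters 1 and 2 of lac- differed between segments as well (F = 4.597 and 6.68, adjusted p = 0.0317 and 0.0154, same test). Within the mark, the region mean and cluster 2 still passed (F = 4.94 and 10.7, adjusted p = 0.0144 and 0.00056 over 8 tests, permutation within the mark), and clusters 1 and 3 did not (F = 1.58 and 2.26, adjusted p = 0.242 and 0.115). In LAC+ the region mean was between 75.3% and 76.7% in all 5 segments (F = 1.02, adjusted p = 0.575, permutation test). Within the mark it had F = 1.19 (adjusted p = 0.343), and clusters 1, 2 and 3 had F = 2.34, 3.498 and 0.373 (adjusted p = 0.0992, 0.0327 and 0.852, same test).

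The motif TGCCGC, which the zinc finger protein ZFP57 binds when it is methylated, was searched on both strands because imprinted control regions are known to hold it. The 4596 bp of the region hold it 10 times. Of 15 tiles of 300 bp, 7 held at least 1 copy, against 11.6% of 32851 RefSeq promoters of 300 bases. Only 2 covered CpGs in the copied part of a probe lie in it, 109526658- and 109530445-, with a median P60 mean of 79.1% against 85.2% for the other copied CpGs. A match of these letters is a description and not a site.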

How the data were processed

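The authors trimmed reads with Trimmomatic 0.32, mapped them with Bismark to GRCm38 (mm10) and deposited 1 file per sample with counts of modified and unmodified reads at each cytosine, not normalized; Bismark's version is not given in the sources used here. Groups and replicates came from the labels, lanes and the merged mark from the file names. Percent modification was computed as modified over all reads at cytosines with more than 30 reads. Region and cluster means used CpGs covered in every sample compared and were compared with exact permutation tests or 100000 resamples (seed 1), with Benjamini-Hochberg adjustment and a threshold of 0.05. A single cytosine was tested where 3 or more samples of each group passed that depth, with a quasi-binomial F test with 1 dispersion per cytosine, Bonferroni correction over CpGs and CpHs and a threshold of 0.01; limma 3.58.1 on log2 odds (pseudocount 0.5) was an alternative. On simulated data with 200 CpGs shifted by 20 points, 188, 106, 144 and 135 were recovered in the layouts of P60 segments, P6 and P60 in segment 7, the diets in segment 8 and P60 and lac- in segment 1, with 0 false calls. Of unchanged CpGs, 7.98%, 5.64%, 5.98% and 4.40% had an unadjusted p under 0.05.

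Members, clusters and tests were chosen with earlier results of these data known. Named CpGs were those with the highest and lowest P60 mean, the largest and smallest strand difference, the largest SD and the lowest p of each comparison; others were named after their values were seen. Probe positions came from the study's list of probes. Replicates were compared in pairs to look for a library deposited more than once, and chi-square per CpG, which covers counting error only, was at least 3.08 (449 pairs, median 8.24). Versions were R 4.3.3 and Python 3.11.15, with pandas 2.3.3, SciPy 1.17.1, Matplotlib 3.10.9 and NumPy 2.4.6 as packages.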

Additional observations from a re-analysis of the deposited data

Results flagged for a closer look

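In 8 of 80 groups and measures, 1 sample stood apart from the others of its group by Dixon's test, which chance does in about 1 in 20. Of the 8, 4 concern P60. In P60 segment 4, replicate 1 was low in the region mean (73.9%, others 76.5% to 78.01%) and in cluster 3 (81.6%, others 86.7% to 88.4%). In cluster 2, P60 segment 5 replicate 3 was low (64.9%, others 71.9% to 77.5%), and so was P60 segment 8 replicate 1 (76.1%, others 82.2% to 84.6%). In the 4 P6 samples of segment 7, replicate 4 was high in cluster 3 (87.8%, others 83.96% to 84.5%). Among P90 samples, LAC+ segment 4 replicate 4 was low in the region mean (73.0%, others 74.7% to 75.6%), LAC+ segment 8 replicate 1 was high (77.1%, others 73.7% to 75.1%) and is the only file of its group without the merged mark, and lac- segment 7 replicate 6 was high (79.4%, others 74.8% to 76.4%). These values are over CpGs read in every sample.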

How the results depend on the processing

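The P60 segment difference of the region mean kept its call in 13 settings (F = 14.02 to 28.4), and 17 to 40 single CpGs were called in 7. The fall from segment 3 to 9 (-1.02) missed the threshold at 10 or more reads (-1.13), on the plus strand (-0.925), without arm CpGs (-1.02) and within lanes (-0.965). Of P6 minus P60, segment 3 (-2.25) passed with pooled reads (-2.02) and on the minus strand (-3.81), and turned to 0.091 with the other imprinted regions subtracted, as segment 1 (-3.55) did to 0.401. Leaving out 1 sample gave -3.94 to -3.21 in segment 1, where the call was lost without each P6 sample, and -3.23 to -0.680 in segment 7, which passed without replicate 2. With 1 P6 sample of segment 1 left out, the smallest exact permutation p before adjustment was 0.0222, against 0.00606 with all samples. The lost calls of segment 1 thus do not show a weaker difference.

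Of LAC+ minus lac-, segment 1 passed with pooled reads (-1.45). Segment 8 (-2.01) missed the threshold at 10 or more reads (-0.988), on the plus strand (-1.81), with the imprinted regions subtracted (-1.56) and within the merged mark (-0.264), and was 0.021 within lanes. Segment 7 turned to 0.108 with those regions subtracted and 0.485 within lanes, and segment 4 to 0.383 within lanes or mark. With those regions subtracted, LAC+ segments passed (F = 6.46) and lac- segments did not (F = 3.21, and 3.21 on the plus strand).

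Of lac- minus P60, segment 1 missed the threshold at 10 or more reads (-1.43), with the imprinted regions subtracted (-2.10) and without marked files (-0.347). Segment 3 turned to 0.263 with those regions subtracted. Segment 4 passed without P60 replicate 1 (-1.96) and turned to 0.700 without marked files. Segment 7 turned to -0.176 at 10 or more reads, -0.338 with pooled reads and -0.704 without lac- replicate 6, and segment 8 to 0.0048 on the minus strand, 0.143 with those regions subtracted and 0.254 without marked files.

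With Benjamini-Hochberg adjustment over CpGs at 0.05, 40 of 74 CpGs were called between P60 segments. Between P6 and P60 20 of 74, 17 of 74 and 10 of 81 were called in segments 1, 3 and 7. Between the diets it was 13 of 74 in segment 8. Between P60 and lac- it was 12 of 74, 1 of 74 and 44 of 81 in segments 1, 3 and 4. The share of all CpGs called is not given for this threshold or the other alternative settings, so these counts cannot be set against it. The 1 CpG called between P6 and P60 in segment 1 became 0 by limma and, leaving out 1 sample at a time, 0 to 1.

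Deviations of same-numbered samples had a mean r of 0.048 in P60, 0.053 in LAC+, 0.034 in lac- and 0.248 in P6 (77.8% of 9 pairs over 0.1), and by the number in the file names 0.097 in P60 and 0.170 in lac- (58.6% of pairs over 0.1). No group had every pair over 0.1, so the pairing is not established. With the replicate block, P60 segments 3 and 9 (-1.02), 1 and 9 (-2.05), P6 and P60 segment 1 (-3.60), the diets in segment 8 (-2.01), lac- segments (F = 3.99) and P60 and lac- segment 1 (-1.85) lost their call. With the replicate block by the number in the file names, P60 segments 3 and 9 (-1.02), 1 and 9 (-2.03) and lac- segments (F = 4.87) did. Groups of different age or diet hold different mice, so the replicate number cannot pair them. With the 3 P6 samples of segment 1, a paired test could not pass at any difference. By replicate number, all pairs of P60 segments 1 and 9, and of P60 and lac- segment 1, went the same way. Their paired p was thus the smallest possible. The causes of the changes between settings were not tested.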
